A study of Mus musculus with 130 samples.

Results

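The comparison described here asks how the liver transcriptome of mice fed 2% iron differs when the fibre in the diet is cellulose. It comprises 6 of the 130 liver samples of the series, chosen by diet label alone: 3 mice fed 2% carbonyl iron with cellulose as the fibre source, and 3 mice fed 2% carbonyl iron. All 6 are male C57BL/6J mice, an inbred laboratory strain. Both diets carry 20000 ppm iron, so the iron content of the diet is common to both groups. Liver iron was not among the values used here. The fibre of the second diet, the age of the mice, the time on the diet, the hour of collection and any batch are not given in the sources used here. How the cellulose mice were housed, handled and sequenced therefore cannot be told apart from their fibre. Another 9 mice of the same strain and sex, 3 each on chow, 50 ppm iron and 500 ppm iron, gave the levels outside 2% iron. All expressed genes were compared: 13560 of the 35274 genes in the table passed the filter on low counts.

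The adult male mouse liver has an expression programme of its own. Growth hormone is released in pulses in males, and each pulse activates the transcription factor STAT5b in hepatocytes, which keeps a set of male-biased genes high and a set of female-biased genes low. Among the male-biased products are many major urinary proteins, small pheromone carriers that the liver secretes in large amounts, and several cytochrome P450 enzymes and steroid-metabolizing enzymes. Iron, in contrast, acts in the liver mainly through the BMP/SMAD signal that raises hepcidin, through ferritin storage, and through oxidative stress that NRF2 target genes answer.

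The 6 libraries held 10771031 to 11989584 counts. On the leading principal component of the 6 mice (33.9% of variance) cellulose replicates 1 and 2 lay at 34.1 and 29.9, cellulose replicate 3 at -2.58 and the 2% mice at -8.53, -30.1 and -22.8. By root mean square difference in log2 CPM (scaled counts), cellulose replicate 3 was 0.553 and 0.568 from its group mates and 0.528 to 0.551 from the 2% mice. Replicate 2 of the 500 ppm group also stood apart, at 0.658 on the leading component of all 15 mice, with its group mates at -37.3 and -35.1. The count of called genes is therefore also given without each of these mice. List counts without cellulose replicate 3 are given for iron genes and NRF2 targets only.

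Between the 2 diets with 2% iron, 10 genes fell with cellulose and 1 rose. The genes that fell were Mup19, Mup3, Mup20, Hsd3b5, Cyp4a12a, Slco1a1, Ces3b, Serpina1e, Keg1 and the pseudogene Serpina4-ps1, and the gene that rose was Ddah1. The 11 calls, at an adjusted p under 0.05 in edgeR's quasi-likelihood test, are 0.0811% of the genes tested, with 0.00737% called higher and 0.0737% called lower. At an unadjusted p under 0.05 there were 1757 genes (13.0%), 783 higher and 974 lower. DESeq2 called 219 genes, 96 higher (0.708%) and 123 lower (0.907%), including all 11. The count depended on single mice: it was 4 without cellulose replicate 1, 0 without cellulose replicate 2 (1227 genes then had an unadjusted p under 0.05), and 212 without cellulose replicate 3, 100 higher (0.726%) and the rest lower (0.813%). It was 6 without 2% iron replicate 2. Leaving out mice on other diets moved it as well, to 53 without 500 ppm replicate 2 and 18 without 50 ppm replicate 1; the genes tested also changed, and the cause was not tested.

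Of the 11 called genes, 7 were on a list of male-biased liver genes or of major urinary proteins. The 3 cellulose mice lay below all 9 mice of the other 3 diets in each of the 10 falls. The 3 mice on 2% iron also lay below those 9 in 9 of the 10 falls, the exception being Serpina4-ps1. Ordered by level, these 9 genes therefore ran from cellulose at the bottom through 2% iron to the other diets, with no overlap between the 3 tiers. The step from 2% iron down to cellulose follows largely from their choice as called falls. The share of all genes below those 9 mice was not counted, so the order is a description of these genes only.

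**Figure D1:**
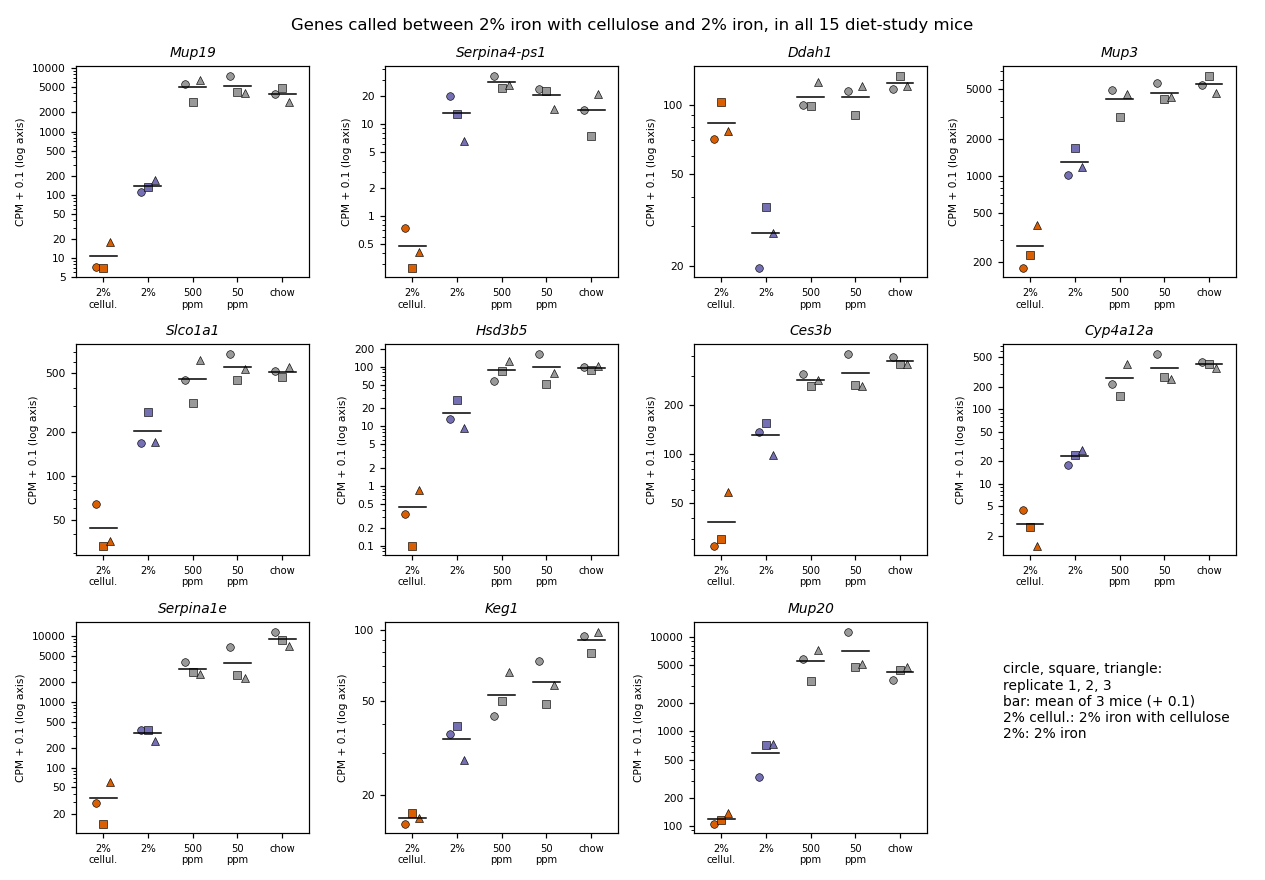
Each panel plots 1 of the 11 called genes in all 15 mice of the diet study, as scaled counts (CPM) plus 0.1 on a log axis, with a bar at the mean of each diet's 3 mice. In 10 panels the cellulose mice are lowest of all diets, while for Ddah1 the 2% iron mice are lowest, at 19.6 to 35.9 CPM.

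Levels below are CPM, counts scaled by TMM factors to a common library size, listed for replicates 1, 2 and 3, and differences are log2 differences, cellulose minus 2% iron. Mup19 (ENSMUSG00000078673, chromosome 4, 61778324 to 61782269 of GRCm38), a major urinary protein gene, measured 7.16, 6.97 and 18.2 CPM on cellulose and 112.1, 133 and 172 CPM on 2% iron. The groups did not overlap, and the mouse highest on cellulose was replicate 3. Mup19 fell by 3.69 on the log2 scale (SE 0.43, adjusted p 0.00708), a 12.9-fold difference in mean CPM. On the other 3 diets it measured 2901 to 7559.6 CPM, so both groups fed 2% iron were far below every other mouse. The Mup19 call was lost without cellulose replicate 2, at an adjusted p of 0.0513, the highest of its 22 alternatives.

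Mup3 (chromosome 4, 62083476 to 62087342) measured 179.9, 228 and 401 CPM on cellulose and 1006, 1689 and 1176 CPM on 2% iron. All cellulose mice were below all 2% mice, and Mup3 fell by 2.26 (SE 0.30, adjusted p 0.00936). Mup20, which encodes darcin, a urinary pheromone protein of males, measured 106, 115 and 138 CPM and 327.2, 720.1 and 732.6 CPM. The cellulose mice were close together, and Mup20 fell by 2.31 (SE 0.38, adjusted p 0.0357). Without cellulose replicate 1 the calls of both were lost, at adjusted p of 0.0502 for Mup3 and 0.214 for Mup20. They were lost without cellulose replicate 2 as well, at 0.0966 and 0.179. Mup20 further lost its call without 2% iron replicate 2 or 3 (0.171 and 0.119), without 500 ppm replicate 1 (0.0570) and without chow replicate 1 or 2 (0.0605 and 0.0570). In the fit of the 2 groups alone Mup3 was at 0.0505. Over all 22 alternatives the adjusted p ran from 1.56e-12 to 0.0966 for Mup3 and from 1.01e-05 to 0.214 for Mup20.

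Lower values ran through most of the major urinary protein family. Of 21 members tested, 3 fell, against 0.0737% of all genes called lower. An unadjusted p under 0.05 with lower values was found for 16, against 7.18% of all genes. Cellulose mice lay entirely below 2% mice in 16, against 9.34%. Some members so counted were barely detected, such as Mup6, at means of 0.0525 CPM on cellulose and 0.318 CPM on 2% iron. The median log2 difference of the family was -2.33, beside 0.000103 over all genes. Summed over the 22 listed genes, the family measured 375.1 to 1032 CPM on cellulose, 2585 to 4383 CPM on 2% iron and 23401 to 57097 CPM on 50 ppm iron. Mup10, not called, had 64.8, 112.03 and 433 CPM against 1059.9, 1703 and 1376 CPM, with replicate 3 again the highest cellulose mouse (adjusted p 0.0704). Mup21, at 1.61, 1.76 and 2.23 CPM against 5.63, 14.7 and 10.8 CPM, narrowly missed the threshold (adjusted p 0.0511). The family's members are near-copies, and their reads cannot always be told apart. Of the 31-base words in each gene's transcripts, 0% were unique to Mup19, 69.9% to Mup3 and 35.5% to Mup20. The level of a single member is therefore uncertain, and the 21 members are not separate observations in the counts above. The summed level does not depend on how reads were split among the 22 listed genes. It can depend on reads shared with genes outside the list, since Mup20 shares 51.2% of its words with the pseudogene Mup-ps19.

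Hsd3b5 (chromosome 3, 98618634 to 98630252), a male-specific member of the hydroxysteroid dehydrogenase family that inactivates steroids, was almost absent on cellulose. It had 3, 0 and 10 counts in the cellulose mice, or 0.242, 0 and 0.770 CPM, and 12.9, 28.0 and 9.39 CPM on 2% iron. A count of 0 in cellulose replicate 2 allows a level of up to 0.264 CPM (3 counts; counting error only). Hsd3b5 fell by 5.53 (SE 0.78, adjusted p 0.0140), with a 95% interval of -7.21 to -3.84, against 51.6 to 164 CPM on the other 3 diets. The call was lost without cellulose replicate 1 (0.149) or 2 (0.103), while its adjusted p ran from 2.93e-11 to 0.149 over the alternatives that tested it. With at least 10 counts required in every library it was not tested. Of its paralogs, Hsd3b3 at -0.17 and Hsd3b2 at -0.13 were not called.

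Cyp4a12a, a male-biased cytochrome P450 that hydroxylates fatty acids, measured 4.35, 2.56 and 1.39 CPM on cellulose and 17.7, 24.3 and 28.2 CPM on 2% iron. It fell by 3.08 (SE 0.47, adjusted p 0.0230) with no overlap. Its near-copy Cyp4a12b, which shares 62.2% of its 31-base words, was at 0.564, 0.618 and 0 CPM against 6.30, 5.51 and 2.73 CPM and was not called (adjusted p 0.126). The other tested members of the family, Cyp4a10, Cyp4a14, Cyp4a31 and Cyp4a32, had log2 differences of -0.08 to 0.59 and were not called. Cyp4a12a lost its call without cellulose replicate 1 (0.0502) or 2 (0.126) and without 2% iron replicate 2 (0.0931) or 3 (0.0716), in a range of 5.82e-07 to 0.126.

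Slco1a1 (chromosome 6, 141907282 to 141946962), a male-biased organic anion transporter of the hepatocyte membrane that takes up bile acids and steroid conjugates, measured 64.1, 33.3 and 35.6 CPM on cellulose. It measured 167, 273 and 170.3 CPM on 2% iron, all above the cellulose mice, and 314 to 678 CPM on the other 3 diets. Slco1a1 fell by 2.20 (SE 0.30, adjusted p 0.00979) and lost its call without cellulose replicate 2 alone (0.0966, range 9.04e-12 to 0.0966). Of its 31-base words 95.98% were unique. Its neighbours in the family, Slco1a4 at 0.42 and Slco1a6 at -0.70, were not called.

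Ces3b, a carboxylesterase, measured 27.0, 29.6 and 57.7 CPM on cellulose and 135, 155 and 98.7 CPM on 2% iron and fell by 1.77 (SE 0.27, adjusted p 0.0223). The groups were separate, and cellulose replicate 3 lay nearest to the 2% mice. Its close relative Ces3a, which shares 35.7% of its words, measured 201.9, 194 and 279 CPM against 461, 674.01 and 468 CPM and narrowly missed the threshold (adjusted p 0.0578). Ces3b lost its call without cellulose replicate 1 or 2 (0.157 and 0.126), without 2% iron replicate 1 or 2 (0.0530 and 0.109) and in the fit of the 2 groups alone (0.0911), in a range of 1.53e-08 to 0.157.

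Serpina1e is one of the genes of the alpha-1-antitrypsin family, protease inhibitors secreted by hepatocytes. It measured 28.5, 14.0 and 60.7 CPM on cellulose and 379, 376 and 253 CPM on 2% iron, without overlap, and 2291 to 11601 CPM on the other diets. It fell by 3.29 (SE 0.51, adjusted p 0.0237), whereas the abundant relatives Serpina1a, Serpina1b, Serpina1c and Serpina1d had differences of -1.02 to -0.23 and were not called. Only 45.8% of the words of Serpina1e are unique. Its call was lost without cellulose replicate 1 or 2 (0.193 and 0.111), without 2% iron replicate 1 or 2 (0.0531 and 0.1003) and with the 2 groups alone (0.0560), in a range of 2.50e-06 to 0.193. The pseudogene Serpina4-ps1, named after its values were seen, had 8, 2 and 4 counts on cellulose, or 0.644, 0.176 and 0.308 CPM, against 19.8, 12.8 and 6.49 CPM on 2% iron. It fell by 5.06 (SE 0.61, adjusted p 0.00708) and lost its call without cellulose replicate 2 (0.0513). With at least 10 counts required in every library it was not tested. Unlike the other falls it was not lowered by 2% iron itself in a called way, at -0.65 against 50 ppm (adjusted p 0.269).

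Keg1 (chromosome 19, 12695786 to 12719902) measured 14.97, 16.6 and 15.9 CPM on cellulose, close together, and 35.96, 39.1 and 27.9 CPM on 2% iron. It fell by 1.12 (SE 0.18, adjusted p 0.0357), the smallest of the 10 falls and the one most often lost. Its adjusted p was 0.211 and 0.126 without cellulose replicates 1 and 2, and 0.0851 and 0.179 without 2% iron replicates 1 and 2. It was 0.0626 without 50 ppm replicate 3, 0.0605 without chow replicate 1 and 0.0998 and 0.0989 with limma on TPM. The lowest and highest over all alternatives were 1.01e-05 and 0.211. Of the 8 called genes with a RefSeq promoter entry, Keg1 was the only one whose 250 bases before the start held the STAT5 letters TTCNNNGAA (both strands searched), which occur in 7.02% of 32851 promoter entries. The entry of Hsd3b5 does not lie at the start of the gene model given above, so for Hsd3b5 another start was searched. The RefSeq sequence (GRCm38.p6, chr19:12695540-12695789, plus strand, 5′ to 3′) is shown for those matches, with that of Slco1a1 (chr6:141946963-141947212, minus strand), which has none, for comparison. In order from the 5′ end, capitals mark GCATTGTCA, TTCTGTGAA and TTCTAGGAA. The first is a match on the other strand to the antioxidant response letters TGACNNNGC, found in 10.2% of entries, and the other matches are to the STAT5 letters. None of these matches overlap, and a match of letters is a description, not a binding site.
Keg1: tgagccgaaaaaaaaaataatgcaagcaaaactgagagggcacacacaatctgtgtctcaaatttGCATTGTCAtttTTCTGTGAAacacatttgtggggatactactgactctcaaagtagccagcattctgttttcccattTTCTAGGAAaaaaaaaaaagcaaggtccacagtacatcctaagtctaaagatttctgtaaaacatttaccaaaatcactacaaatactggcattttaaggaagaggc
Slco1a1: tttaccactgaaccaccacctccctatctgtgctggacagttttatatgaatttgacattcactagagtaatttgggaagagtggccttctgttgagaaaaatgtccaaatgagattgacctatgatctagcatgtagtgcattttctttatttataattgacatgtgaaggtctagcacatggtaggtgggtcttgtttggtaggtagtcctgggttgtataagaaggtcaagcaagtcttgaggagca

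Ddah1 (ENSMUSG00000028194, chromosome 3, 145758675 to 145894277), which breaks down asymmetric dimethylarginine, an inhibitor of nitric oxide synthases, was the single gene that rose. It measured 70.6, 102 and 76.9 CPM on cellulose and 19.6, 35.9 and 27.6 CPM on 2% iron, so each cellulose mouse was above each 2% mouse. The log2 difference was 1.59 (SE 0.20, adjusted p 0.00708), a 3.002-fold higher mean. The other 3 diets gave 89.9 to 133 CPM, and against 50 ppm iron Ddah1 fell by 1.96 on 2% iron (adjusted p 0.000126; 7.17% of genes were called lower there), while on cellulose it was at -0.37 (adjusted p 0.156) and not called. Its 2% iron mice were thus the lowest, and 1 cellulose mouse was inside the range of the other 3 diets. All 31-base words of Ddah1 were unique. Its paralog Ddah2 was at 0.00 and not called. The call was lost without cellulose replicate 2 (0.0513) and with the 2 groups alone (0.0505), in a range of 5.63e-12 to 0.0513.

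The list of male-biased liver genes was chosen with earlier results of these data known and holds 6 of the called genes. The counts below include these 6, and 3 tested members are also on the list of major urinary proteins. Of 31 members tested, 6 fell, against 0.0737% of all genes called lower. A further count at an unadjusted p under 0.05 gave 23 with lower values, against 7.18%, and 0 with higher values. In 22 there was no overlap with cellulose below, against 9.34%. The median log2 difference of the list was -1.04. Among members not called, Elovl3, a fatty acid elongase, was at -2.95 (adjusted p 0.101), Cyp2d9 at -0.99 (0.127) and Cyp7b1, an oxysterol hydroxylase, at -1.21 (0.354). Cyp2f2, a P450 of the periportal lobule and club cells, measured 198, 224 and 271 CPM against 421, 567.6 and 496 CPM (adjusted p 0.0558). In the other direction, 5 of the 31 were above 0, against 50.0% of all genes, the highest at 0.67. Ces1c was at 0.03, with a 95% interval of -0.20 to 0.26. Intervals were wider for Bcl6, a repressor of female-biased genes, at -0.14 (-1.23 to 0.95), and for Ugt2b38 at -0.05 (-1.29 to 1.18). DESeq2 called 15 members lower, against 0.907% of all genes, and 0 higher.

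No female-biased gene was called, and 23 of 28 had a log2 difference above 0, against 50.0% of all genes. The other 5 were below 0, with Cyp3a41a at -0.79 the lowest. edgeR called 0 of 28, DESeq2 called 0, and 4 had an unadjusted p under 0.05, all higher, against 5.77% of all genes. In 12 of the 28 the cellulose mice lay entirely above the 2% mice, against 8.08%, and the median log2 difference was 0.60. Cux2, a female-biased transcription factor, measured 45.2, 30.3 and 27.9 CPM on cellulose and 12.02, 6.22 and 13.2 CPM on 2% iron (log2 difference 1.71, adjusted p 0.362). Cyp2a22 measured 34.8, 49.0 and 26.1 CPM and 9.78, 5.60 and 14.1 CPM (adjusted p 0.246). Every cellulose mouse was above every 2% mouse in both genes.

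The genes that carry the growth hormone signal itself were measured as well. Of 19 genes of the growth hormone and IGF axis, edgeR called 0, and the median was -0.12. DESeq2 called 1 lower, against 0.907% of all genes. At an unadjusted p under 0.05, 1 was higher and 3 were lower, against 5.77% and 7.18% of all genes. Hnf4a, a hepatocyte transcription factor, was at -0.21 (adjusted p 0.322). Onecut1, also called HNF6, measured 18.8, 14.7 and 18.6 CPM against 67.5, 19.5 and 67.5 CPM, where 2% iron replicate 2 lay near the cellulose mice (adjusted p 0.259).

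**Figure D2:**
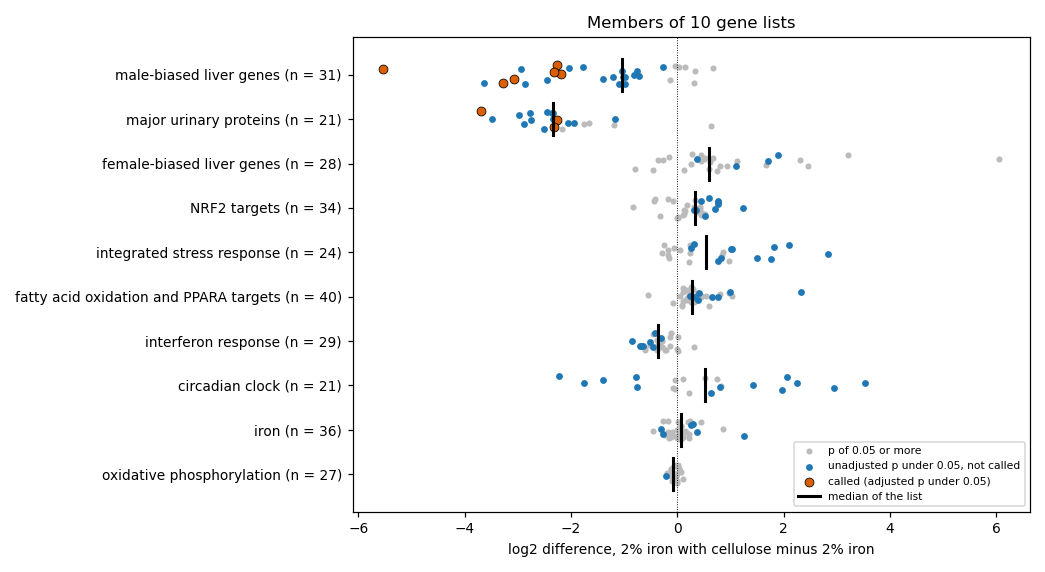
Each point is 1 gene of 10 lists, placed at its log2 difference between 2% iron with cellulose and 2% iron; orange points are called, blue points have an unadjusted p under 0.05 only, and the black bar is the list's median. The medians of male-biased genes (-1.04) and major urinary proteins (-2.33) lie left of 0 and that of female-biased genes (0.60) right of it, while the iron list centres at 0.07.

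No iron gene was called. Of 36 tested, edgeR called 0 and DESeq2 called 0, and the median log2 difference was 0.07. At an unadjusted p under 0.05, 4 were higher (11.1%, against 5.77% of all genes) and 2 lower (5.56%, against 7.18%). The 95% interval stayed within 2-fold in either direction for 29 of the 36, a share near the 78.4% of all genes. Wider intervals belonged, among others, to Alas1, at 1.26 (0.37 to 2.14), and Lcn2, at 0.85 (-0.49 to 2.19). Hamp, which encodes the iron hormone hepcidin, measured 809, 725.8 and 679 CPM on cellulose and 686, 771 and 727 CPM on 2% iron. The groups overlapped, and the difference of 0.02 had an interval of -0.62 to 0.66. Bmp6, the ligand that signals iron load to hepatocytes, was at -0.09 (-0.55 to 0.36), and the ferritin light chain gene Ftl1 at 0.08 (-0.19 to 0.34). Transferrin receptor Tfrc at 0.20, Id1 at 0.22 and Smad7 at -0.24, the last pair being BMP/SMAD targets, had wider intervals that reach at least 0.87 in size. The smallest adjusted p belonged to Hfe2, which encodes hemojuvelin, a co-receptor for BMP6, at 73.9, 76.1 and 82.9 CPM against 97.0, 96.6 and 96.3 CPM (log2 difference -0.32, adjusted p 0.159). Ferroportin, Slc40a1, was at 0.36 with no overlap and the ferritin heavy chain gene Fth1 at 0.29 with an overlap, neither called. Pcbp1 at 0.25 and Ireb2 at -0.27 had no overlap and were not called (adjusted p 0.236 and 0.192). Without cellulose replicate 3, 1 iron gene was called higher, against 0.726% of all genes in that fit.

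**Figure D3:**
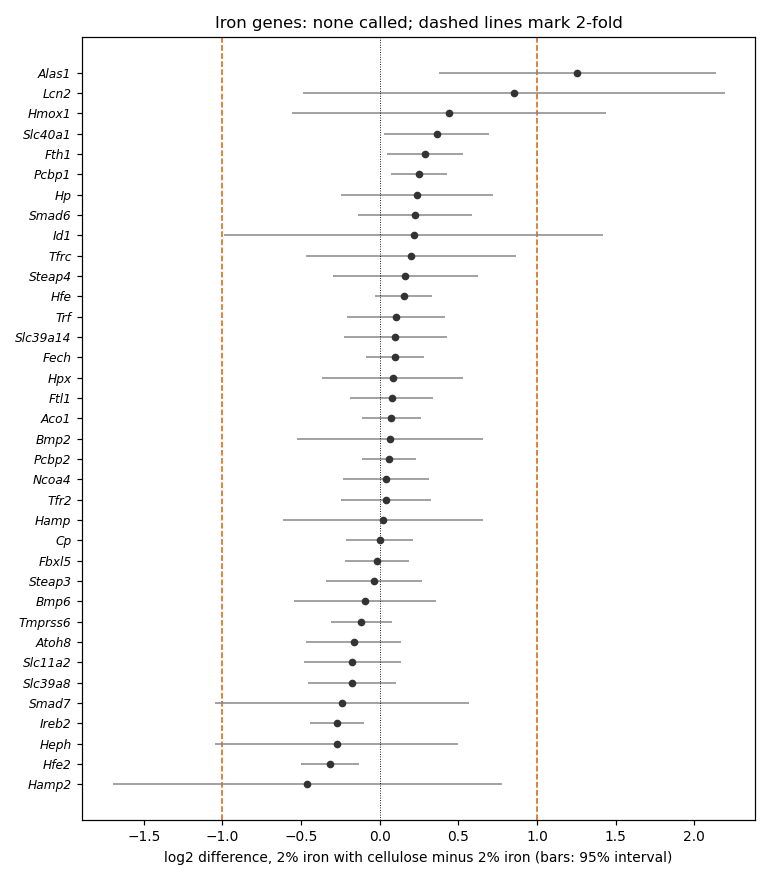
Points give the log2 difference of each of 36 iron genes between 2% iron with cellulose and 2% iron, with 95% intervals as bars and dashed lines at 2-fold. Hamp lies at 0.02 and Bmp6 at -0.09; Alas1 has the highest value, 1.26.

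Stress-response genes were higher on cellulose in part of their lists, short of a call. For NRF2 targets, which encode antioxidant and detoxifying enzymes, edgeR called 0 of 34 and DESeq2 called 2 higher, against 0.708% of all genes. An unadjusted p under 0.05 was found for 10, all higher, against 5.77%, and the median was 0.33. Abcc3, an export pump for bile acid and drug conjugates, measured 457, 484 and 314 CPM on cellulose and 271, 224 and 240.3 CPM on 2% iron (log2 difference 0.77, adjusted p 0.0587). Cellulose replicates 1 and 2 were well above the 2% mice and replicate 3 was nearer to them. Srxn1, sulfiredoxin, measured 65.4, 101 and 57.8 CPM and 44.6, 46.1 and 57.9 CPM, with replicate 3 of each group at the same level (adjusted p 0.1999). Without cellulose replicate 3, 3 NRF2 targets were called higher, against 0.726% of all genes in that fit.

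For the integrated stress response, in which ATF4 raises amino acid synthesis, edgeR called 0 of 24 and DESeq2 called 3 higher, against 0.708% of all genes. An unadjusted p under 0.05 was found for 11, all higher, against 5.77%, and the median was 0.54. Asns, asparagine synthetase, measured 4.19, 6.70 and 4.24 CPM on cellulose and 1.16, 0.622 and 1.71 CPM on 2% iron, so its lowest cellulose mouse was above its highest 2% mouse (log2 difference 2.10, adjusted p 0.0578). Psat1, a serine synthesis enzyme, measured 4.11, 8.12 and 3.23 CPM and 1.33, 1.33 and 1.71 CPM (adjusted p 0.142), and Vldlr, a lipoprotein receptor, 29.6, 25.7 and 10.7 CPM and 10.5, 6.76 and 6.14 CPM (adjusted p 0.204). Gdf15, a stress hormone, was set apart by 1 mouse, with 38.2, 9.17 and 12.6 CPM against 9.36, 5.16 and 3.16 CPM (adjusted p 0.194).

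Genes of fatty acid oxidation and other PPARA targets leaned upward by small amounts. Of 40 tested, 38 were above 0, against 50.0% of all genes, and the median was 0.28. An unadjusted p under 0.05 was found for 8, all higher, against 5.77%. edgeR called 0 and DESeq2 called 5, all higher, against 0.708% of all genes. Cd36, a fatty acid transporter, measured 170.0, 176 and 144 CPM on cellulose and 93.2, 68.1 and 85.3 CPM on 2% iron without overlap (log2 difference 0.99, adjusted p 0.159). Cidec, a lipid droplet protein, measured 13.4, 16.8 and 4.39 CPM against 2.82, 2.4002 and 1.62 CPM, again with replicate 3 lowest on cellulose (adjusted p 0.101). Outside the lists of metabolism, Mmp12, a macrophage elastase, had the smallest p among the rises not called, with 9.42, 12.5 and 10.2 CPM on cellulose, 2.98, 3.82 and 2.82 CPM on 2% iron and 1.03 to 3.63 CPM on the other diets (log2 difference 1.74, adjusted p 0.0511). Next were Bmp2k at 0.54, Rdh9, a retinol dehydrogenase family member, at 1.34 and Fam117b at 0.80 (adjusted p 0.0578 for each). Rsrp1 at -0.51 was among the falls not called (adjusted p 0.0514).

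**Figure D4:**
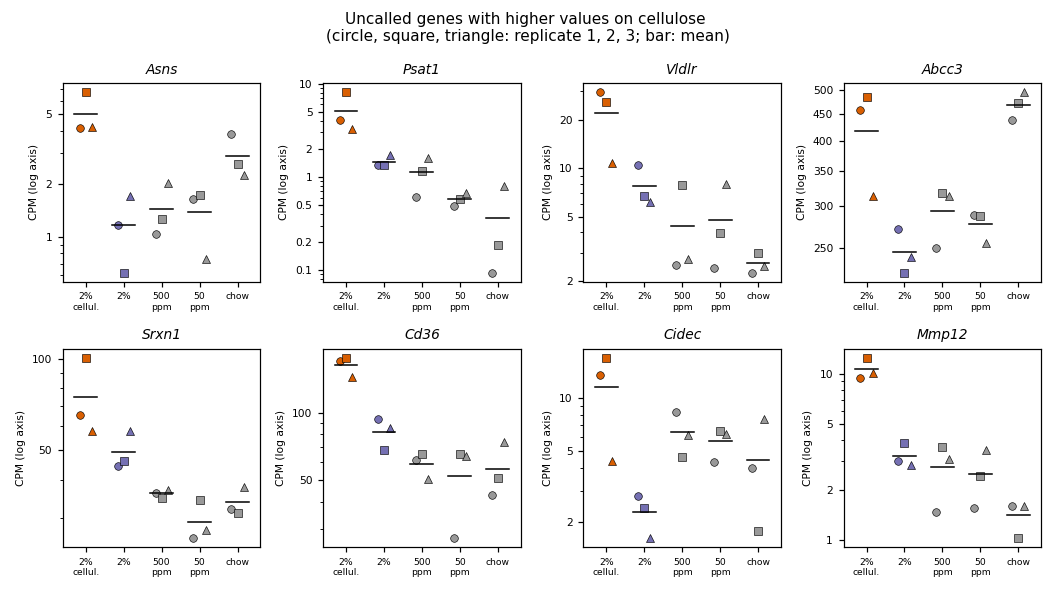
Each panel plots 1 gene that was higher on cellulose without a call, in all 15 mice of the diet study, as CPM on a log axis with a bar at each mean. For Mmp12 the cellulose mice, at 9.42 to 12.5 CPM, are above all 12 other mice, whereas for Abcc3 the chow mice, at 439 to 494.8 CPM, are as high as the cellulose mice.

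The 3 cellulose mice were not alike in their clock genes. Per2, a clock repressor, measured 35.2, 33.96 and 6.39 CPM on cellulose and 5.22, 4.27 and 9.64 CPM on 2% iron. Dbp, a clock output factor with a strong daily swing, measured 55.8, 81.6 and 15.4 CPM against 3.07, 1.60 and 8.45 CPM, and Arntl, the core clock activator that peaks in the opposite phase, 2.42, 1.76 and 11.2 CPM against 18.9, 22.8 and 11.1 CPM. In Per2 and Dbp replicates 1 and 2 were far above replicate 3, and in Arntl far below it.

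Of 21 clock genes, edgeR called 0. DESeq2 called 1 higher and 2 lower, against 0.708% and 0.907% of all genes. At an unadjusted p under 0.05, 8 were higher and 5 lower, against 5.77% and 7.18% of all genes. In 16 of the 21 (76.2%), cellulose replicate 3 lay nearer to the 2% mean than to its 2 group mates, a count made after the values were seen, as it did for 56.6% of all genes. The same was so for 25 of 34 NRF2 targets (73.5%), 8 of 21 major urinary protein genes, 8 of 24 genes of the integrated stress response and 8 of 31 male-biased genes. No test was made of these counts. Tef measured 131, 126 and 64.5 CPM against 41.4, 30.1 and 47.8 CPM and Nfil3 7.49, 5.999 and 12.7 CPM against 24.9, 26.0 and 18.5 CPM (adjusted p 0.159 and 0.101). Alas1, the first enzyme of heme synthesis, followed the same split at 818, 639.7 and 241 CPM against 237, 164 and 311 CPM, as did Glul, glutamine synthetase, at 326.5, 357 and 726.1 CPM against 771, 684 and 680.4 CPM. The part of clock phase in the differences between the diets was not tested.

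**Figure D5:**
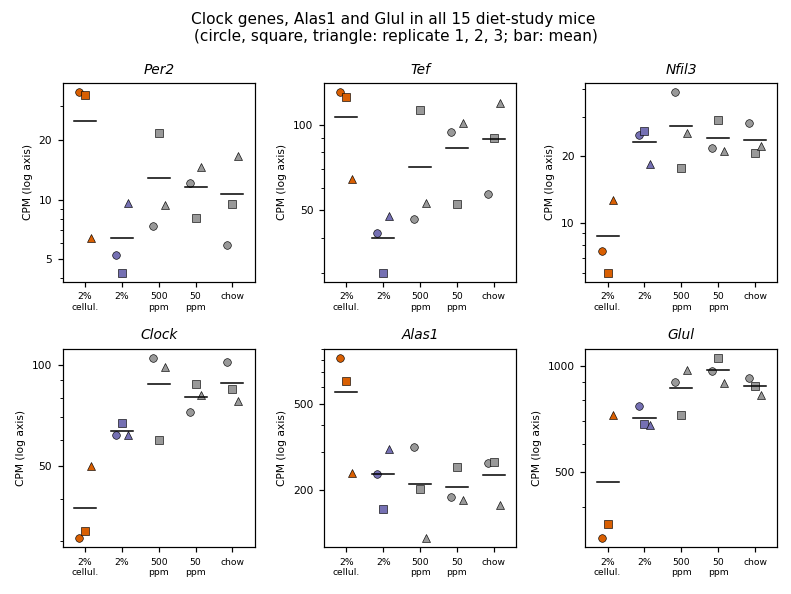
Each panel plots 1 gene in all 15 mice of the diet study, as CPM on a log axis with a bar at each mean. Cellulose replicate 3 (triangle) is apart from replicates 1 and 2 in Per2, Tef, Clock, Alas1 and Glul; in Per2 it is at 6.39 CPM and they are at 35.2 and 33.96 CPM.

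Markers of hepatocytes and of other cells were summed in each mouse. In bulk tissue, fewer cells of a type and less RNA per cell cannot be told apart. The 8 hepatocyte genes summed to 89216 to 94886 CPM on cellulose and 95382 to 102084 CPM on 2% iron. edgeR called 0 of them and DESeq2 called 1 lower, against 0.907% of all genes. An unadjusted p under 0.05 was found for 2, both lower, against 7.18% of all genes. Summed over 11 Kupffer cell genes the levels were 715 to 1038 and 692 to 747 CPM, over 8 measured erythroid genes 171 to 442 and 325 to 482 CPM, and over 12 exocrine pancreas genes 3.88 to 7.25 and 4.62 to 6.66 CPM, with 7 of those 12 at 0 in all 3 mice of each group. Neutrophil genes were highest in cellulose replicate 1, where the 11 summed to 94.8 CPM, while the lowest cellulose mouse had 16.1 CPM and the 2% mice had 10.5 to 23.1 CPM. The part of these cells in the called genes was not tested.

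The contrast of chow against 50 ppm iron shares no mouse with the 6 described here. It had 53 called genes, 36 higher on chow (0.265%) and 17 lower (0.125%). Of these, 23 had the same sign in cellulose minus 2% iron, 6 with an unadjusted p under 0.05, and 8 had the opposite sign with an unadjusted p under 0.05. None of the 53 was among the 11 called genes. Conversely, 6 of the 11 had the same sign in chow minus 50 ppm. Over all genes, 13.0% had an unadjusted p under 0.05 in cellulose minus 2% iron, in either direction. The share of all genes with the same sign in both contrasts was not counted, so the sign counts are a description only.

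A C57BL/6J mouse on 2% carbonyl iron is also part of the strain panel of the series, which was quantified in a separate table, so its length-scaled TPM values can be set beside the diet study only as a description. This 1 mouse was below all 3 diet-study mice on 2% iron in 10 of the 10 falls, as it was for 29.1% of the 13425 genes in both tables. The falls were called for values in those same 3 mice above the cellulose mice, which favours such a count. The 29.1% covers genes not so chosen and is no like comparison. The panel mouse was within the range of the cellulose mice in 5 of the 10 and below it in 3. Over the 13425 genes it was within that range in 6046 and below it in 4987, so these counts do not set the falls apart. Slco1a1 measured 12.2 TPM in the panel mouse, 20.9, 10.2 and 11.8 TPM on cellulose and 50.4, 85.7 and 49.0 TPM on 2% iron. Hsd3b5 measured 0.620 TPM in it, against 0.178, 0 and 0.635 TPM and 9.75, 21.8 and 6.70 TPM. Ddah1, at 14.7 TPM, was nearer to the 2% iron mice, at 9.83, 12.7 and 9.47 TPM, than to the cellulose mice, at 27.6, 36.8 and 31.9 TPM. Over the 114 strains Hsd3b5 ran from 0 to 126 TPM with a median of 0.763.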

How the data were processed

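Liver RNA of 130 male mice was sequenced with a stranded mRNA kit, per the labels' protocols. The authors' deposited tables hold expected counts per gene and mouse, not normalized, and TPM; the submitters' processing notes name kallisto 0.46 and mm10, with no role given. Counts were rounded, filtered with filterByExpr (13560 genes kept) and fitted in edgeR 4.0.16 (R 4.3.3), with TMM factors, all 5 diet groups and no covariate; glmQLFTest gave two-sided p-values with Benjamini-Hochberg adjustment. The design assumed counts, rounded if not whole. Replicates are separate mice per the labels. With 3 mice a group an exact permutation test of a single value cannot go below p = 0.1, so none was run. The 6 libraries held 10771031 to 11989584 counts.

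The text names all called genes (a pseudogene outside this rule), genes with the smallest p among those not called, members of the iron list, up to 4 members of other lists, and family members of called genes; not every such gene is named, and Elovl3, Cyp2d9, Cyp7b1, Ces1c, Bcl6, Ugt2b38, Dbp, Arntl and the genes named last in the closing section were chosen after their values were seen. The members and the 25 pathway and 14 marker lists were chosen with earlier results of these data known. Symbols and coordinates are from GENCODE M21 (GRCm38), which matched 34845 of 35274 identifiers. Alternatives were RLE factors, other filters, the 2 groups alone, DESeq2 1.42.0, limma 3.58.1 on log2(TPM + 1) and log2(TPM + 0.1), and each mouse left out. The fit was tested on simulated data. Panel counts were not used; panel TPM are from a separate deposited table.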

Additional observations from a re-analysis of the deposited data

How the results depend on the processing

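The count of 11 called genes was 13 with RLE factors, 51 with no filter, 26 with at least 10 counts in every library, 23 with the 2 groups alone, 219 with DESeq2, and 18 with limma on log2(TPM + 1) and on log2(TPM + 0.1). Leaving out each of the 15 mice in turn gave 0 to 212, of which the 9 mice on other diets, an alternative chosen after seeing the data, gave 9 to 53. None of the named genes' calls changed direction in these 22 alternatives, of which Hsd3b5 and Serpina4-ps1 were not tested in 1, that with at least 10 counts. DESeq2, RLE factors and no filter kept all 11 calls, and leaving out cellulose replicate 2 kept 0, with adjusted p from 0.0513 to 0.179; the cause was not tested. No paired analysis was possible because the labels carry no replicate numbers. At this depth Hsd3b5 had at most 10 counts and Serpina4-ps1 at most 8 in a cellulose mouse.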

Other observations

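For the counts that follow, 7.18% of all genes were lower and 5.77% higher at an unadjusted p under 0.05, 50.0% were below 0, and DESeq2 called 0.907% lower and 0.708% higher. Of 30 bile acid genes tested, 1 fell (Slco1a1), 18 were below 0 and 12 above, 9 had lower and 3 higher values at an unadjusted p under 0.05, and the median log2 difference was -0.16; DESeq2 called 6 lower and 1 higher. Cyp7a1, the rate-limiting enzyme of bile acid synthesis, was at -1.30 (adjusted p 0.1999), Cyp8b1, the 12-alpha-hydroxylase, at -0.68 (0.178), and Fgfr4, the receptor for the gut hormone FGF15, measured 30.8, 28.4 and 27.8 CPM against 39.4, 43.6 and 37.8 CPM without overlap (0.0578). Slc27a5, a bile acid CoA ligase, measured 355, 359.9 and 406 CPM and 481, 529 and 486 CPM (0.101). The 3 higher were the transporters Abcc3, Abcg5 at 0.52 (0.206) and Abcc2 at 0.33 (0.317). Pericentral hepatocyte genes had 0 of 12 called by edgeR and 3 lower by DESeq2, with 5 lower at an unadjusted p under 0.05 and a median of -0.39. Tbx3, a transcription factor of that zone, measured 18.2, 26.0 and 26.6 CPM against 42.0, 38.9 and 49.3 CPM (0.0578), and Slc1a2, a glutamate transporter, 22.1, 24.4 and 43.3 CPM against 70.3, 66.9 and 61.9 CPM (0.0704). Periportal hepatocyte genes had 0 of 12 called by edgeR and 1 lower by DESeq2. At an unadjusted p under 0.05, 3 of them were lower and 1 higher, and their median was -0.09.

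Interferon response genes had 0 of 29 called by edgeR and 0 by DESeq2, 8 lower at an unadjusted p under 0.05, 25 below 0 and a median of -0.36. Rsad2, an antiviral enzyme, measured 64.5, 38.9 and 82.5 CPM on cellulose and 130.1, 129.4 and 77.2 CPM on 2% iron, with an overlap (0.270). Oasl1 measured 51.0, 51.3 and 55.2 CPM and 70.5, 84.01 and 71.9 CPM with none (0.261). Genes of amino acid degradation had 0 of 25 called by edgeR and 1 lower by DESeq2, with 7 lower at an unadjusted p under 0.05 and 23 below 0. Kynu, kynureninase, measured 58.8, 67.4 and 84.6 CPM against 106, 140.0 and 125 CPM (0.142). Genes of the unfolded protein response had 0 of 22 called by edgeR and 2 lower by DESeq2, with 6 lower at an unadjusted p under 0.05. Ern1, the sensor IRE1, measured 40.5, 57.2 and 61.8 CPM against 86.0, 80.8 and 78.9 CPM (0.101). Lipogenesis had 0 of 24 called by either tool, 4 lower at an unadjusted p under 0.05 and a median of -0.42, and Acss2, an acetate-activating enzyme, varied widely at 71.7, 106 and 260.4 CPM against 86.3, 446 and 587.9 CPM (0.357). Oxidative phosphorylation genes, 27 tested, all had intervals within 2-fold, with 1 lower at an unadjusted p under 0.05 and 0 called by edgeR or DESeq2. Values in parentheses in these paragraphs are adjusted p from edgeR's quasi-likelihood test.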
